A study of Mus musculus with 2 samples.

Results

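The regions described here are the ELF1 ChIP-seq peaks that lay between genes at a moderate distance from the nearest gene start. A peak was a member when its summit lay outside every gene body of the GENCODE M1 annotation and over 2 kb, but at most 50 kb, from the nearest transcript start. Of the 18804 peaks of the mm9 list, 3593 (19.1%, 95% exact interval 18.6% to 19.7%) met this rule. The data came from 1 group, ELF1 ChIP-seq in the mouse B-cell lymphoma line CH12.LX, strain of origin B10.H-2aH-4bp/Wts, with 2 biological replicates and no second condition. In ChIP-seq an antibody pulls down a protein together with the DNA it sits on, and peaks are called where the recovered DNA is enriched. The mm9 list was made from both replicates together, so it has no replicate error, and the replicates were compared through separate mm10 lists. The cells were 1 line grown in culture. The members were set against 9173 promoter peaks (summit within 1 kb of a start), 3787 intronic peaks (over 2 kb from a start) and 895 intergenic peaks beyond 50 kb. Neighbouring peaks are not independent, so the p-values below are too small to an unknown degree.

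ELF1 belongs to the ETS family of transcription factors, which bind DNA around a GGAA core and read the bases on either side of it. ELF1 is made in many cell types and is known in lymphoid cells for binding both promoters and distal regulatory DNA. Other ETS factors, among them PU.1 and ETS1, read much the same core in B cells. Distal elements of B cells often hold the words of RUNX, AP-1, IRF and OCT factors next to ETS sites, and CTCF sites mark many boundaries between gene neighbourhoods.

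The windows of the 8 members with the highest signal show what stood at the top of the class. Each window is the summit and 50 bp to each side, read 5′ to 3′ from the plus strand of NCBIM37, the assembly also called mm9. Each is named by the gene with the nearest start. Capitals mark GGAA, or its complement TTCC, and the B box word, which is GGTTCGA, any 2 bases and then CC, or its complement. The B box is an internal promoter element of tRNA genes. The word fixes every base but 2, so a tRNA gene with another base in its B box counts as lacking it.
Gm11708, chr11:106874174-106874274: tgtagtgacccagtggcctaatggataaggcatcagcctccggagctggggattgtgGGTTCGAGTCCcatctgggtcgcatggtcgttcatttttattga
9330160F10Rik, chr11:68876499-68876599: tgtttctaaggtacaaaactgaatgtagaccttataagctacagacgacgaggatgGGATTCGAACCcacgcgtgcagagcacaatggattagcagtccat
Zfp692, chr11:58115970-58116070: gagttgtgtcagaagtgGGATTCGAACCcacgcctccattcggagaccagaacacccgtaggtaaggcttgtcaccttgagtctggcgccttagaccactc
Tmem44, chr16:30510717-30510817: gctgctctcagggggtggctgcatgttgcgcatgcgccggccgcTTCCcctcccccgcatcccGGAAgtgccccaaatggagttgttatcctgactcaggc
Plxdc1, chr11:97850213-97850313: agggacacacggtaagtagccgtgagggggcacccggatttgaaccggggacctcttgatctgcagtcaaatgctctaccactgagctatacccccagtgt
Gm12271, chr11:61221409-61221509: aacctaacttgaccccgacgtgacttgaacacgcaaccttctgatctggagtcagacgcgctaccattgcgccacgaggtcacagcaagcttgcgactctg
Mir193b, chr16:13437404-13437504: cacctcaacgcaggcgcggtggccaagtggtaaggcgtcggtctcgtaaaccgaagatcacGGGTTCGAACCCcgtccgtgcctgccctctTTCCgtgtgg
AC122546.1, chr5:150040570-150040670: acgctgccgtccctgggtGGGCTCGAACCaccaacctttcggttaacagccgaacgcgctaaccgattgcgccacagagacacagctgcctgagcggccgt

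Of these 8 windows, the ones beside Gm11708, 9330160F10Rik, Zfp692, Plxdc1, Gm12271 and AC122546.1 held no GGAA. The windows beside Gm11708, 9330160F10Rik, Zfp692, Mir193b and AC122546.1 held the B box word, which in the Mir193b window is read on both strands at overlapping positions. The window beside Tmem44 is of another kind, with 2 ETS cores.

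The peak beside Gm11708, a pseudogene, lay at chr11:106874010-106874404 and had the highest signal of all members, 2663, upstream of that start by 8.17 kb. Its other neighbour, Gm11705, lay 12.8 kb away on the right. The peak 2.56 kb upstream of 9330160F10Rik, at chr11:68876109-68876796, had a signal of 2239. The peak at chr11:58115513-58116258, with a signal of 2023, lay 4.55 kb upstream of Zfp692, a zinc finger gene. The peak 30.2 kb from the nearest start of Tmem44, on its downstream side, had a signal of 1975 at chr16:30510589-30510979. The peak beside Plxdc1 had a signal of 1957 and lay 2.50 kb upstream of its start and 0.629 kb from Arl5c. All 5 exceeded the member median of 60.7 by a wide margin, and 4 of them lay on chromosome 11.

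The remaining 10 of the strongest 15 had signals from 1547 down to 1166. They lay nearest to Gm12271, Mir193b, AC122546.1, Tyk2, Trpv4, Sar1b, Trim27, Gm13004, Olfr750 and Fam83f. Tyk2 encodes a Janus kinase of cytokine receptors, and its peak had a signal of 1413 at 4.10 kb upstream. Trpv4 encodes a cation channel, and its peak had a signal of 1334 at 9.19 kb upstream, with Gltp on the other side. Sar1b encodes a GTPase of the COPII coat, and its peak had a signal of 1310 at 41.7 kb downstream of the start, near Phf15 on the right. Of the strongest 15 members, 6 lay on chromosome 11, 8 were CpG-rich and 6 held no GGAA.

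Members were weaker than promoter peaks and slightly stronger than the other distal classes. The signal is the authors' own value for each peak, on a scale that is not given, and entered tests only as a rank within the list. The median was 60.7 over members, against 107 over promoter peaks, 57.0 over intronic peaks and 57.1 over intergenic peaks beyond 50 kb. The middle 50% of members ran from 44.5 to 96.8, against 57.1 to 246 for promoter peaks, so the classes overlapped. Of the members, 1384 (38.5%) were in the stronger 50% of the whole list, against 64.8% of promoter peaks (odds ratio 0.341, two-sided Fisher's exact p = 2.98e-159). The share was 34.1% in intronic peaks (odds ratio 1.21, exact p = 8.7e-05) and 33.7% in intergenic peaks beyond 50 kb (odds ratio 1.23, p = 0.0087). Without the peaks that held the B box word, a comparison chosen after the data were seen, the members' share was 37.8%, against 34.0% of intronic peaks (exact p = 0.000702) and 33.6% of those beyond 50 kb (p = 0.02).

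**Figure D1:**
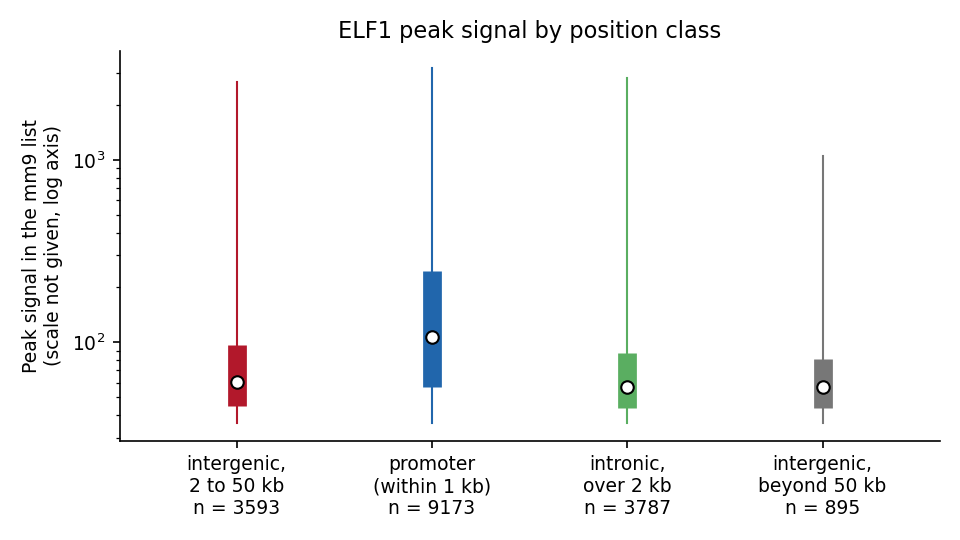
Peak signal in the mm9 list (y, log axis, scale not given) for 4 position classes (x). Thin lines run from the lowest to the highest peak, thick bars cover the middle 50% and white points are medians, which are 60.7 for members and 107 for promoter peaks.

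The ends of the distance range were not sharp in signal or in the share with GGAA. The 223 members 2 to 3 kb from a start had a median signal of 58.8, and 95.1% held GGAA within 50 bp of the summit. The 310 intergenic peaks 1 to 2 kb from a start, which the rule leaves out, had 57.7 and 94.2%. The 228 members at 40 to 50 kb had 60.0 and 91.2%, and the 164 intergenic peaks at 50 to 60 kb had 59.5 and 93.3%. The longer ETS word CCGGAA did change at the near end, from 15.2% at 1 to 2 kb to 22.4% at 2 to 3 kb. At the far end it was in 18.4% at 40 to 50 kb and 17.1% at 50 to 60 kb. These differences were not tested.

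The ETS core was concentrated at member summits. GGAA on either strand was within 50 bp of the summit in 3335 members (92.8%), against 65.0% in the equally long window 500 bp to the left and 65.0% in that to the right (exact McNemar test, two-sided, p = 4.79e-183 and p = 1e-183). Windows of this length taken every 2000 bp along the intergenic DNA that met the same position rule held it in 65.8% of cases. Members had 1.99 GGAA per window on average, against 1.10 and 1.11 in the left and right flanks, and 63.1% had 2 or more, against 29.6% in the left flank. In 42.8% of members the centre of a GGAA lay within 10 bp of the summit, and in 69.2% within 20 bp. The 92.8% of members exceeded the 90.6% of promoter peaks (odds ratio 1.34, Fisher's exact p = 8.34e-05 after Benjamini-Hochberg adjustment, as for every adjusted p here). It was below the 95.7% of intronic peaks and the 95.8% of those beyond 50 kb (adjusted exact p = 6.26e-07 and p = 0.0117). Within the stronger 50% of the list the difference from promoter peaks turned round and was not called (odds ratio 0.807, adjusted exact p = 0.0987), and that from peaks beyond 50 kb was lost (adjusted exact p = 0.108). Among the 258 members without GGAA, 23 held the B box word.

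**Figure D2:**
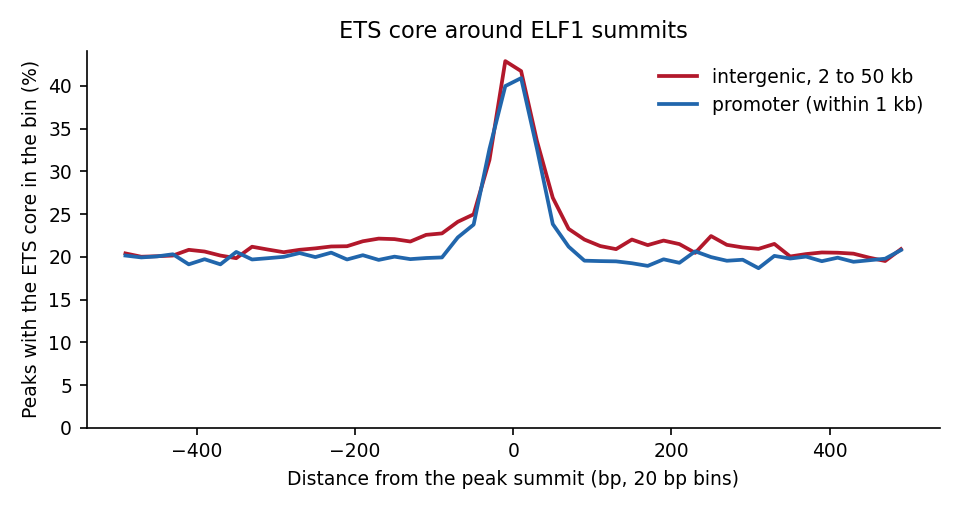
Share of peaks with the ETS core in each 20 bp bin (y, percent) by distance from the summit (x, bp), for members and promoter peaks. The share reaches 42.9% in the bin just left of the summit in members, against 40.0% at promoter peaks, and is 20.4% against 20.1% at the left edge.

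Members and promoter peaks differed in the bases before the core. CAGGAA was in 1572 members (43.8%), against 21.6% of promoter peaks (odds ratio 2.83, adjusted exact p = 4.2e-132). CCGGAA, which holds a CpG, was in 623 members (17.3%), against 36.8% of promoter peaks (odds ratio 0.361, adjusted exact p = 6.77e-107). GAGGAA was in 23.3% of members and 14.5% of promoter peaks (adjusted exact p = 4.31e-31). Each of these was more frequent at member summits than 500 bp away, where CAGGAA was in 10.97% and 10.4% of windows, CCGGAA in 1.42% and 1.64% and GAGGAA in 10.4% and 9.71%. The longer ETS words split the same way, with CCGGAAGT in 5.29% of members against 11.4% of promoter peaks, and GAGGAAGT in 8.80% against 3.90% (adjusted exact p = 6.66e-28 and p = 8.02e-26). All these words hold GGAA, and CCGGAAGT and GAGGAAGT hold CCGGAA and GAGGAA, so their counts overlap. Of the 16 forms with any pair of bases before GGAA, 10 were more frequent in members than in promoter peaks (62.5%) and 5 less frequent (31.2%). The 5 were the forms that hold a CpG, among them GCGGAA, in 7.43% of members against 21.4% of promoter peaks, and CGGGAA, in 3.48% against 9.95%.

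Members stood between promoter and intronic peaks in these words. CCGGAA was in 17.3% of members, more than the 13.4% of intronic peaks (odds ratio 1.36, adjusted exact p = 1.34e-05). CAGGAA was in 43.8% of members, fewer than the 49.3% of intronic peaks (odds ratio 0.799, adjusted exact p = 1.13e-05). GAGGAAGT was in 8.80% of members and 11.8% of intronic peaks (adjusted exact p = 8.59e-05). The GAGGAAGT call was lost within the stronger 50% of the list (adjusted exact p = 0.491). Against intergenic peaks beyond 50 kb, which had CCGGAA at 16.2% and CAGGAA at 48.5%, neither difference passed the threshold (adjusted exact p = 0.571 and p = 0.0787).

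The words of other factors also set members apart from promoter peaks. Each word was sought on either strand of the same window. The 20 words tested include GGAA and the longer ETS words given above, so the counts are not of other factors alone. Of the 20, 13 were more frequent in members than in promoter peaks (65.0%) and 5 less frequent (25%). The AP-1 word TGANTCA was in 6.54% of members, against 1.58% of promoter peaks (odds ratio 4.36, adjusted exact p = 4.01e-43), 2.92% of left flanks and 3.01% of right flanks. The CTCF word, which is CCANNAG, any 2 bases and then GGC, was in 5.85% of members, against 1.28% of promoter peaks (odds ratio 4.81, adjusted exact p = 2.36e-42). The RUNX word TGTGGT was in 9.30% of members, against 4.26% of promoter peaks (adjusted exact p = 9.65e-26), and in 7.65% and 7.07% of the flanks. The ETS-IRF composite word, which is GGAA, any 2 bases and then GAAA, was in 3.79% against 1.42% (adjusted exact p = 2.94e-15), and the octamer ATGCAAAT in 1.86% against 0.730% (adjusted p = 1.26e-07). Within the stronger 50% of the list the octamer call was lost (adjusted exact p = 0.0595). The words less frequent in members included GGGCGG of SP and KLF factors, in 8.02% against 34.6% (adjusted exact p = 1.34e-236), and GCGCATGC of NRF1, in 0.668% against 2.74% (adjusted p = 2.94e-15). In regular windows along the intergenic DNA that met the rule, the AP-1 word was at 2.92% and the CTCF word at 0.552%. The RUNX word was at 7.31% there, the ETS-IRF word at 1.06% and GGGCGG at 0.870%. Windows around the starts of 22364 protein-coding genes held GGGCGG at 27.4% and TGANTCA at 1.94%.

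The strongest member that held each of the RUNX, AP-1, ETS-IRF and CTCF words follows, with that word in capitals. They are set out because each of these words was more frequent in members than in promoter peaks. A match of letters is a description of the window and not a measured site.
Olfr750, RUNX word, chr14:51684546-51684646: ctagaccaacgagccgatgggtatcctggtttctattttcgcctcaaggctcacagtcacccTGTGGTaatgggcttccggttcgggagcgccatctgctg
Tmem44, AP-1 word, chr16:30510717-30510817: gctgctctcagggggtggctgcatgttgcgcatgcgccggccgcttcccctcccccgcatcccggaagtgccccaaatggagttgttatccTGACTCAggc
Emid1, ETS-IRF word, chr11:5081980-5082080: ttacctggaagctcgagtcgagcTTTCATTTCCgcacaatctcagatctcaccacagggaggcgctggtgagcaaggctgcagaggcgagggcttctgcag
Chrna1, CTCF word, chr2:73399817-73399917: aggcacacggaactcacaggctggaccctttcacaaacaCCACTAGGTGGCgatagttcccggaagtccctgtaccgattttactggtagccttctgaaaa

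The signals of these peaks were 1221 at Olfr750, an olfactory receptor gene, 1975 at Tmem44, 316 at Emid1 and 526 at Chrna1. Chrna1 encodes a subunit of the muscle acetylcholine receptor, and its start lay 18.5 kb away. These windows were picked by signal and need not be typical. Those at Olfr750 and Tmem44 lay in CpG-rich DNA, as defined below. The RUNX word was in 3.88% of CpG-rich members, against 9.67% of other members, and the AP-1 word in 2.16% against 6.84%.

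Against intronic peaks 4 of the 20 words were more frequent in members (20%) and 5 less frequent (25%). GGGCGG was in 8.02% of members and 4.70% of intronic peaks (odds ratio 1.77, adjusted exact p = 8.96e-08). The CTCF word was in 5.85% and 4.17% (odds ratio 1.43, adjusted exact p = 0.00308). Within the stronger 50% of the list the CTCF call was lost (odds ratio 1.04, adjusted exact p = 0.973). The AP-1 word, in 6.54% of members and 6.73% of intronic peaks, and the RUNX word, in 9.30% and 10.6%, did not pass the threshold (adjusted exact p = 0.875 and p = 0.114). Against intergenic peaks beyond 50 kb 1 word was more frequent (5%) and 1 less frequent (5%), namely GGGCGG, in 8.02% of members and 4.36% of those peaks (adjusted exact p = 0.00193), and GGAA. The GGGCGG call was lost with windows of 25 bp and within the stronger 50% (adjusted exact p = 0.102 and p = 0.108).

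**Figure D3:**
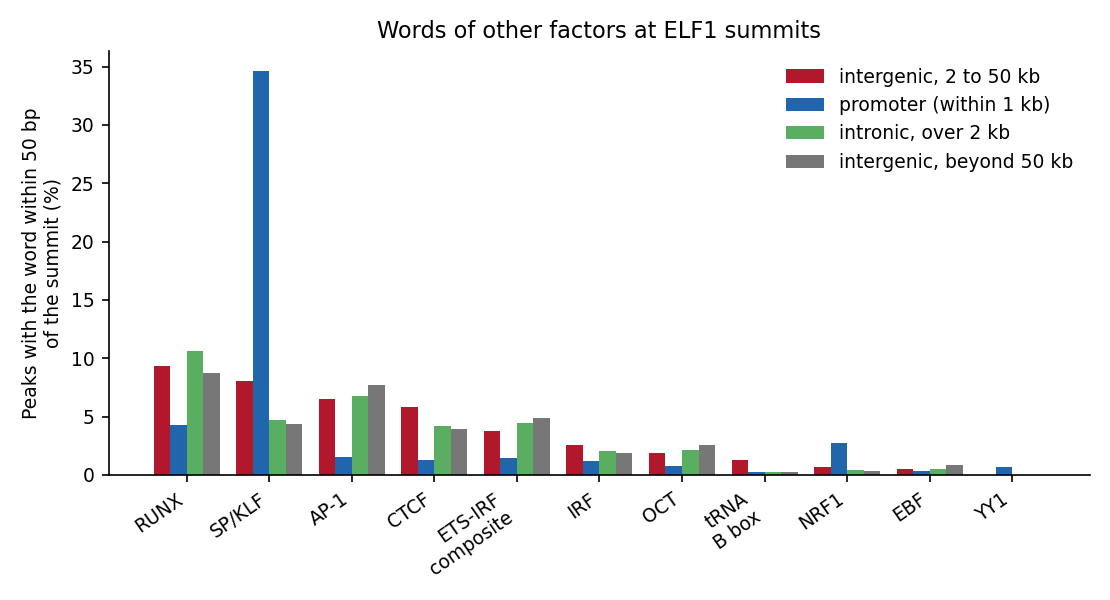
Share of peaks with a word within 50 bp of the summit (y, percent) for 11 words named by their factor (x), in members and 3 other classes. The SP/KLF word is in 8.02% of members against 34.6% of promoter peaks, and the AP-1 word is in 6.54% of members against 1.58% of promoter peaks.

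A minority of members lay in CpG-rich DNA. The DNA 250 bp to each side of the summit was called CpG-rich with over 50% G and C and a ratio of observed to expected CpG over 0.6. This held for 232 members (6.46%, 5.68% to 7.31%), against 72.2% of promoter peaks (odds ratio 0.0265). The share was 1.03% in intronic peaks (odds ratio 6.63, exact p = 3.44e-38) and 1.23% beyond 50 kb (odds ratio 5.55, p = 2.25e-12). Members 2 to 5 kb from a start were CpG-rich in 9.13% of cases, against 5.87% of members farther away (exact p = 0.00341). Tests among members by CpG content and signal were added after the data were seen. Of CpG-rich members 64.2% were in the stronger 50% of the list, against 36.7% of other members (odds ratio 3.09, exact p = 4.15e-16). GGGCGG was in 32.8% of CpG-rich members against 6.31% of the others, CCGGAA in 32.8% against 16.3%, and CAGGAA in 18.97% against 45.5% (adjusted exact p = 6.88e-29, p = 1.99e-08 and p = 2.91e-15). The word windows lie inside the DNA that set CpG content. GGGCGG and CCGGAA hold a CpG and CAGGAA does not, so these directions were favoured in advance. Of the 20 words 2 were more frequent (10%) and 6 less frequent (30.0%) in CpG-rich members.

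Strong and weak members differed in their ETS words. CCGGAA was in 31.0% of the strongest 25% of members, with signals from 96.8, against 8.91% of the weakest 25%, with signals up to 44.5 (odds ratio 4.60, adjusted exact p = 1.28e-31). CCGGAAGT was in 11.3% and 2.23% (adjusted exact p = 2.68e-14), GGGCGG in 11.5% and 5.57% (adjusted p = 6.18e-05) and CAGGAA in 45.7% and 39.5% (adjusted p = 0.0348). The CTCF word ran the other way, with 4.12% of the strongest and 7.02% of the weakest members (odds ratio 0.569, adjusted exact p = 0.0348). These were 4 words higher (20%) and 1 lower (5%) of 20.

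The members with the B box word were few and strong. The word was sought after the windows of the strongest members had been seen, so these tests describe what was noticed there. They do not cover peaks at tRNA genes whose B box differs from the word, so the count is not one of all such peaks. The word, on either strand, was within 50 bp of the summit in 45 members (1.25%), against 0.251% of promoter peaks, 0.238% of intronic peaks and 0.223% of those beyond 50 kb (odds ratios 5.05, 5.32 and 5.66, exact p = 7.3e-11, p = 1.54e-07 and p = 0.0049). Regular windows along the intergenic DNA that met the rule held it at 0.0287%. Their median signal was 775, from 36.7 to 2663, against 60.1 for the other members, and they made up 31 of the strongest 100 members and 6 of the strongest 15. Of these 45 members 48.9% held GGAA, against 93.4% of the others (odds ratio 0.0679, exact p = 1.88e-15). Of the 45, 15 lay on chromosome 13, 8 on chromosome 3 and 7 on chromosome 11. GENCODE M1 holds 0 genes of the type tRNA, so a peak at such a gene was placed by its distance from the starts of other genes. The RefSeq table used for the mm10 lists does hold them, and 229 of the optimal mm10 peaks lay within 500 bp of the start of 1 of its 408 tRNA genes. Those peaks had a median signal of 288, against 39.7 over all optimal peaks, with 124 in replicate 1 and 164 in replicate 2, and 226 of them had a summit within 100 bp in both replicates. The optimal list was made from the same replicates, so that last count was favoured in advance. The mm10 peaks at the places beside Zfp692, Trim27 and Olfr750 lay nearest to the tRNA genes n-TLcaa3, n-TLcaa1 and n-TPagg4.

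Members lay more often on the upstream side of the nearest start. Of the 3593, 2324 (64.7%, 63.1% to 66.2%) lay upstream and 1269 downstream, beyond the end of the gene. The intergenic DNA that met the rule was itself unequal, with 438 Mb upstream and 290 Mb downstream, or 60.2% upstream. Per megabase there were 5.31 members upstream and 4.38 downstream. The densities were 7.91 and 5.09 at 2 to 5 kb, 6.54 and 4.87 at 5 to 10 kb, 5.40 and 5.38 at 10 to 20 kb, 4.59 and 4.74 at 20 to 30 kb and 3.13 and 2.66 at 30 to 50 kb, upstream first. Within 10 kb the upstream side was the denser, and between 10 and 30 kb the sides were close; these densities were not tested. The median distance was 11.5 kb for upstream members and 15.7 kb for downstream members.

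**Figure D4:**
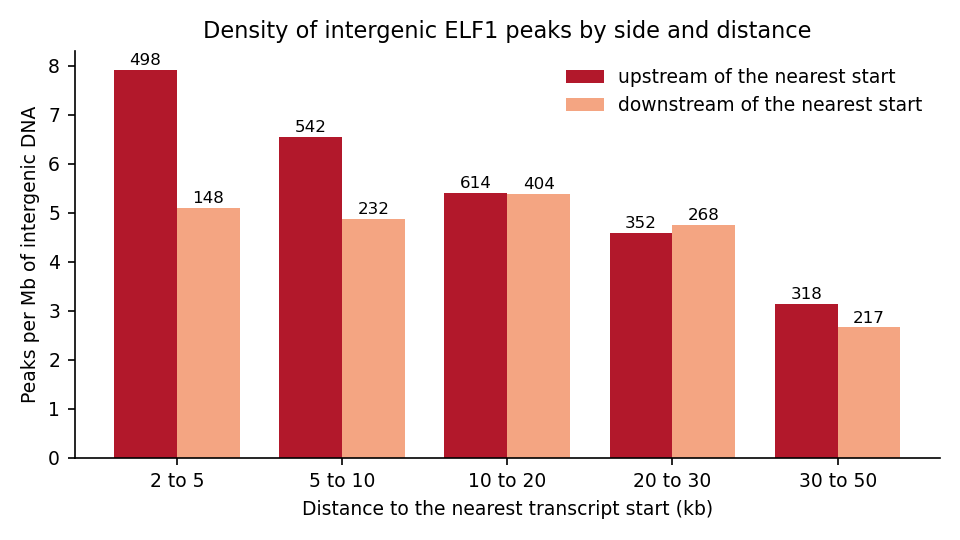
Members per megabase of intergenic DNA (y) by distance to the nearest transcript start (x, kb) and side, with the number of members above each bar. Density falls with distance on the upstream side, from 7.91 at 2 to 5 kb to 3.13 at 30 to 50 kb, and the sides are level at 10 to 20 kb.

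Upstream and downstream members differed past the threshold in 1 of the measures tested. Of the upstream members 37.99% were in the stronger 50% of the list, against 39.5% of the downstream ones (odds ratio 0.939, exact p = 0.39). CpG-rich windows made up 6.67% and 6.07% (exact p = 0.523). Of 20 words 0 were more frequent upstream (0%) and 1 less frequent (5%), the NRF1 word GCGCATGC, in 7 upstream members (0.301%) and 17 downstream members (1.34%, odds ratio 0.223, adjusted exact p = 0.00871). This call was lost under 6 other settings (adjusted exact p from 0.0602 to 0.706) and kept with a lower distance of 5 kb (adjusted exact p = 0.00223). A p above the threshold does not show that the sides are the same.

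The genes on both sides of a member formed 3 arrangements. Between 2 genes that point away from each other lay 1000 members (27.8%, 5.58 per Mb of such DNA), with a median signal of 60.9. Between 2 genes that point the same way lay 1779 (49.5%, 4.56 per Mb), with a median of 60.8. Between 2 genes that point towards each other lay 809 (22.5%, 5.17 per Mb), with a median of 60.2. The nearest start belonged to a protein-coding gene for 2559 members (71.2%), a pseudogene for 272, a processed transcript for 166, an snRNA for 154, a lincRNA for 143 and a miRNA for 121.

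Members were unevenly spread along the genome. Of them 1279 (35.6%) had another member within 10 kb and 1771 (49.3%) within 25 kb. Chromosome 11 held 397 members, or 11.01 per Mb of DNA that met the rule, against a median of 5.11 over the 19 autosomes. Chromosome 15 followed with 8.50 and chromosome 16 with 7.24, and the X chromosome had 0.518. The high share of chromosome 11 was not particular to members. It held 2180 of all 18804 peaks and 11.6% of promoter peaks, with 4.96% of the DNA that met the rule. The X chromosome, with 10.1% of that DNA, held 1.06% of members and 2.03% of promoter peaks. Chromosomes 15 and 16 held 5.37% and 4.84% of members, against 3.64% and 3.63% of promoter peaks. The members of chromosome 13 had the highest median signal, 70.3, and made up 16 of the strongest 100, of which 7 held the B box word.

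The 2559 members beside protein-coding starts were shared among 1845 genes, which is 8.25% of the 22367 genes. Of these genes 1384 had 1 member, 302 had 2 and 159 had 3 or more. A promoter peak was present at 45.8% of the 1845 genes, against 36.0% of the other protein-coding genes.

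The 12 genes described next held 70 members. They are the genes with 6 or more and, of the 17 tied at 5, those with the highest summed signal. Gpx5, which encodes a glutathione peroxidase of the epididymis, was the nearest start for 9 members, all downstream, 13 to 43.5 kb away between positions 21340927 and 21371752 of chromosome 13. Their signals ran from 59.4 to 893 with a median of 766, and 6 of the 9 held no GGAA. GENCODE M1 lists no genes of the type tRNA, so a tRNA gene nearer to these peaks would not have been named. Smug1, a uracil-DNA glycosylase, had 7 members with signals from 36.8 to 1026 and a median of 53.8, 5 of them upstream. These 2 genes had no promoter peak.

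Plcg2, the phospholipase that acts below the B cell receptor, had 6 members, all upstream at 3.28 to 32.9 kb. Their signals were 295, 170, 108, 59.6, 45.9 and 39.4, so the strongest exceeded the member median several times and the weakest lay below it. Pmaip1, the BH3-only protein NOXA, had 6 with signals from 67.0 to 109, 5 of them upstream, all above the member median. Btg2, an antiproliferative gene, had 6 with signals from 40.0 to 152, and Stoml1, a stomatin-like gene, had 6 downstream with signals from 46.9 to 95.8. Elk3, an ETS repressor, had 5 upstream at 42.5 to 49.2 kb with signals from 47.3 to 230. Yy1, a zinc finger transcription factor, had 5 upstream at 27.1 to 34.9 kb with signals from 54.8 to 530. Dapp1, an adaptor that binds PI3K lipids in B cells, had 5 upstream with signals from 48.2 to 244, and Sik1, a kinase, had 5 with signals from 47.4 to 217. The predicted genes Gm5218 and Gm5533 had 5 each, all upstream. Promoter peaks were present at 9 of these 12 genes, a count that depends on how the tie at 5 members was broken.

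Gene lists were read against the 8.25% of all protein-coding genes that were the nearest start of a member. Receptors of cytokines and chemokines stood highest, with 13 of 23 (56.5%), while 7 of the 23 (30.4%) had a promoter peak, against 36.8% of all genes. Of the 13, 8 had no promoter peak. The 13 included S1pr1 and S1pr2, which are receptors of sphingosine phosphate, and Cxcr5, which was also in the B cell identity list. B cell transcription factors followed with 8 of 25 (32.0%), NF-kB and TNF family genes with 8 of 26 (30.8%), ETS family genes with 7 of 25 (28.0%), B cell identity genes with 8 of 29 (27.6%) and the BCL2 family with 4 of 15 (26.7%). T cell markers had 5 of 24 (20.8%), antigen presentation genes 3 of 18 (16.7%), myeloid markers 3 of 21 (14.3%), hepatocyte markers 2 of 19 (10.5%) and skeletal muscle markers 2 of 20 (10%). Proteasome genes had 3 of 31 (9.68%) and cytosolic ribosomal protein genes 3 of 76 (3.95%), although 96.8% and 88.2% of them had a promoter peak. Erythroid and megakaryocyte markers had 0 of 17 and neuron markers 0 of 19. The order depended on the measure. When any start within 50 kb of a member counted, which held for 21.1% of all protein-coding genes, the receptors still had 13 of 23 (56.5%) but stood below antigen presentation with 12 of 18 (66.7%), B cell transcription factors with 16 of 25, the BCL2 family with 9 of 15 and NF-kB and TNF genes with 15 of 26 (57.7%). B cell identity genes had 16 of 29 (55.2%), myeloid markers 9 of 21 (42.9%), ETS genes 8 of 25, hepatocyte markers 6 of 19 (31.6%), T cell markers 7 of 24 (29.2%), muscle markers 5 of 20 and proteasome genes 7 of 31 (22.6%). Ribosomal protein genes, below the share of all genes as nearest start, were above it by this measure with 25 of 76 (32.9%). Erythroid and megakaryocyte markers had 3 of 17 (17.6%) and neuron markers 3 of 19 (15.8%). The length of intergenic DNA nearest to each gene was not compared between lists.

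**Figure D5:**
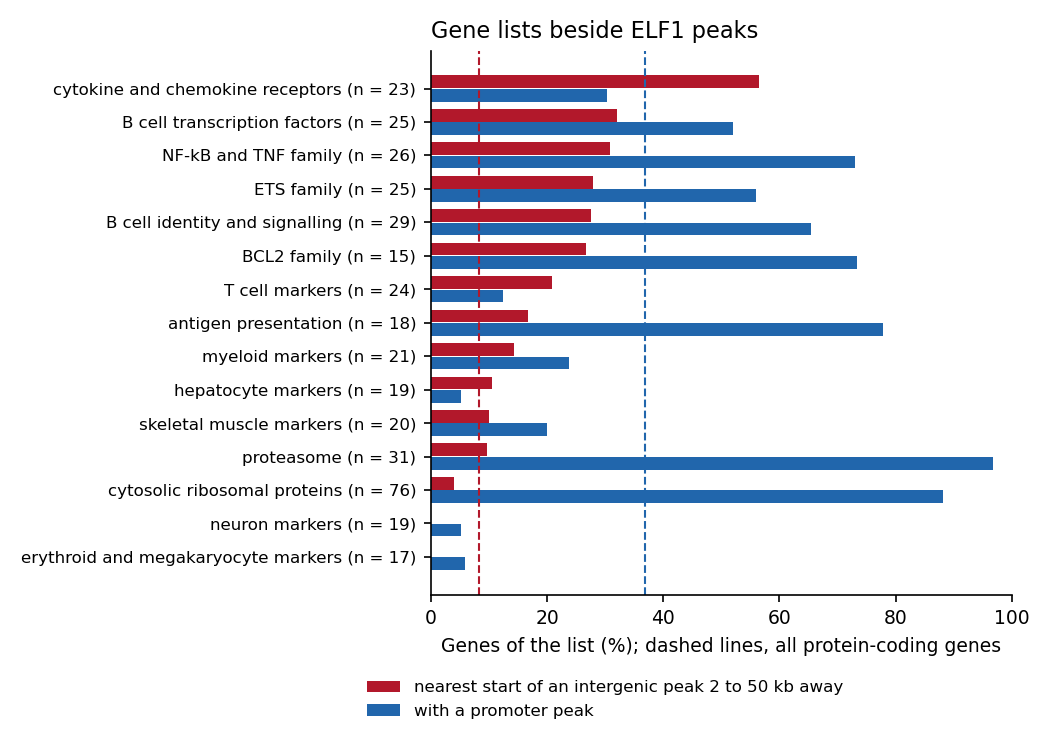
Share of the genes of each list (x, percent) that were the nearest start of a member (red, upper bar) or had a promoter peak (blue, lower bar), for 15 lists with their matched number. The dashed lines mark all protein-coding genes at 8.25% and 36.8%, and the receptor list reaches 56.5% for members with 30.4% for promoter peaks.

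Among the receptors, Il21r, the receptor of interleukin 21, had 4 members, the strongest with a signal of 154 at 35.6 kb on the downstream side and no promoter peak. S1pr2, a sphingosine phosphate receptor of germinal centre B cells, had 1 with a signal of 123 at 6.68 kb upstream. Ifnar2, a chain of the type I interferon receptor, had 1 with 114 at 5.94 kb upstream. Cxcr5, which guides B cells to follicles, had 1 with 112 at 11.6 kb upstream. Ccr7, the lymph node homing receptor, had 5, with signals of 99.5, 77.3, 64.5, 61.3 and 61.2, so all 5 lay above the member median, the first also above the upper quartile of 96.8. The members at Cxcr4 and Il4ra had 36.5 and 36.3, near the lowest signal of the list.

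Among B cell identity genes, the strongest members after Plcg2 lay at Cd86, a costimulatory ligand, at Cd79b, a chain of the B cell receptor, and at Tnfrsf13b, the receptor TACI. Their signals were 257, 194 and 160. Tnfrsf13c, the BAFF receptor, had 4 with signals of 85.8, 47.4, 39.1 and 37.3. Among B cell transcription factors, Prdm1, the plasma cell regulator Blimp-1, had 1 with 126, Ebf1 had 4 with 115, 65.8, 65.5 and 61.9, Myb had 2 with 99.1 and 48.3, and Tcf3 had 1 with 93.1. Of the genes named in this paragraph, Myb had no promoter peak and the others had one.

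The windows of the strongest member at Plcg2, Il21r and Prdm1 are shown because they stand for the B cell, receptor and transcription factor lists. Capitals mark GGAA or TTCC.
Plcg2, chr8:120004533-120004633: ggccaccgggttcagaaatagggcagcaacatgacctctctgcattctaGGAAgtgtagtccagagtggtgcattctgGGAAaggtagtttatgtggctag
Il21r, chr7:132782525-132782625: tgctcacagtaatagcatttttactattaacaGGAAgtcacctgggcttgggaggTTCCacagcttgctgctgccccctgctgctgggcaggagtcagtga
Prdm1, chr10:44151665-44151765: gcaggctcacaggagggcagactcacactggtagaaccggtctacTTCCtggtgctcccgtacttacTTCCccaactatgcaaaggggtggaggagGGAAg

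The windows held 2, 2 and 3 ETS cores. Among NF-kB genes, Rela, a subunit of NF-kB, had 1 member with a signal of 419 at 11.1 kb on the downstream side. Nfkbia, its inhibitor, had 5, of which the strongest had 180 at 26.9 kb. Traf2, a TNF receptor adaptor, had 1 with 54.2. In the BCL2 family, Bmf, a BH3-only gene, had 1 with 137 at 4.85 kb upstream, Mcl1 had 3, up to 47.3, and Bcl2 had 1 with 38.4.

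Among ETS genes, Elf2, a close relative of Elf1, had 4 upstream members, the strongest with a signal of 899 at 18.8 kb and the next with 785 at 17.7 kb, and neither held GGAA. Their mm10 counterparts, with 132 and 134 in replicate 1 against 208 and 181 in replicate 2, lay within 1 kb of the RefSeq tRNA genes n-TPagg5 and n-TPtgg7, as did that of the Elf2 member with a signal of 36.6. Etv5 had 1 of 256, and Elk3 was described above. Fli1 had 2, up to 127. Among antigen presentation genes, a member of 520 lay 3.43 kb upstream of H2-D1, a class I heavy chain gene with near-identical relatives, where reads can be placed wrongly. Psmb9, an immunoproteasome subunit, had a member of 143 and H2-Ob 1 of 94.2. In the proteasome list Psma3 had a member of 848 at 5.46 kb upstream that held no GGAA, and Psma6 had 2, up to 179. Psmc1 had 1 of 55.1, and in the ribosomal list Rpl21 had 2, up to 157, Rplp0 had 1 of 66.1 and Rps10 1 of 37.8.

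None of the genes named next, from the lists of other cell types and tissues, had a promoter peak. Cd4 had a member of 116 at 6.04 kb upstream, Ctla4 3 up to 59.9, Tcf7 1 of 59.5 and Icos 1 of 47.2. The myeloid genes were Emr1, with 3 up to 59.1, Fcgr1, with 1 of 58.1, and Csf3r, with 1 of 51.2. Pck1, of gluconeogenesis, had a member of 129 at 6.37 kb downstream and Cyp7a1, of bile acid synthesis, 1 of 40.0. Myh2, a muscle myosin, had 3 up to 170, and Myog, a muscle regulator, 1 of 57.2. The replicates differed widely at the peaks of Cd4 and Cyp7a1 and at the strongest of Myh2, as given below.

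The replicates were compared in the mm10 lists with RefSeq gene bounds, by the same distance limits. Starts here were ends of RefSeq genes rather than transcript starts, and a gene without a known strand was counted at both ends. The mm10 classes are therefore not defined exactly as the mm9 ones. Of 29077 optimal peaks placed, 5335 (18.3%) were intergenic at 2 to 50 kb. A summit within 100 bp was present in both replicates' relaxed lists for 83.8% of them, against 88.2% of 10914 promoter peaks (odds ratio 0.693, exact p = 2.04e-14). The optimal list was itself made from both replicates and thresholded by irreproducible discovery rate, and each relaxed list held 300000 entries. High recovery was thus favoured in advance and is no independent check. With the list cut by signal into 4 bins of equal size, a comparison added after the data were seen, the order turned. From the weakest bin to the third, the intergenic share was 59.8%, 90.4% and 96.6%, against 52.9%, 84.7% and 93.7% at promoters (adjusted exact p = 9.45e-05, p = 1.19e-06 and p = 0.000128). In the strongest bin it was 99.7% against 99.4% (adjusted exact p = 0.574). Weak peaks were more common among the intergenic ones, with 1632 in the weakest bin and 666 in the strongest, against 1744 and 4738 promoter peaks.

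Signals of the replicates followed each other less closely than at promoters. Over the 4470 intergenic peaks found in both, the log2 signals of the replicates gave a Pearson r of 0.736 and a Spearman rho of 0.670, against 0.896 and 0.912 over 9624 promoter peaks. These run across peaks, which share libraries and cover unlike ranges of signal, so they are descriptions. Replicate 2 gave 1.36 times the signal of replicate 1 at the median intergenic peak and 1.30 times at the median promoter peak, on scales that can differ between lists. The SD of the log2 difference was 0.717 against 0.632.

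Single members were followed into mm10 by their place relative to the same gene start, with no conversion of coordinates. Of 2289 members whose gene was found in RefSeq on the same chromosome and strand, 1322 (57.8%) had an optimal peak within 100 bp of that place, and 1264 of these (95.6%) had a summit in both replicates. The last share was favoured in advance, because the optimal list was made from the same replicates. A start placed elsewhere in RefSeq, or a changed distance between the assemblies, would also leave a member unmatched. The unmatched members are thus not shown to be absent from mm10. By RefSeq 73.8% of the 1322 were still intergenic at 2 to 50 kb, 10.1% lay at promoters and 10.8% in introns. The peak at Tmem44 had signals of 282 in replicate 1 and 307 in replicate 2, that at Trpv4 had 246 and 271, and that at Sar1b had 210 and 241. The strongest peaks at Plcg2, Cd86 and Prdm1 had 98.0 and 95.1, 58.7 and 102, and 39.0 and 50.7. Apart from Plcg2, replicate 2 was the higher in each of these. The replicates lay further apart at some genes of other cell types. The Cd4 peak had 11.07 in replicate 1 and 44.98 in replicate 2, and that at Cyp7a1 had 4.904 and 26.18. The strongest Myh2 peak had 55.33 and 18.54, with replicate 1 the higher. At Tcf7 replicate 1 had no summit within 100 bp and replicate 2 had 12.5. The peaks at Pck1 and Myog were closer, with 45.82 and 54.74, and 21.09 and 35.06.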

How the data were processed

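Per the deposited README text, the mm9 list was derived from the mm9 alignments of both replicates, the relaxed mm10 list of each replicate from its own alignments and a control, and the thresholded optimal and conservative ones by their irreproducible discovery rate. For the aligner and the caller, names and versions were not given in the sources used here. The peak signal is the 7th column of the deposited lists. Read depth is unknown, and exact 95% intervals cover counting error only. Nothing in the labels gives the cultures' separation beyond the word biological.

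Summits of the mm9 list were placed against GENCODE M1 genes and the NCBIM37 sequence, and windows, CpG content and words were read there. Shares were compared by two-sided Fisher and McNemar exact tests with Benjamini-Hochberg adjustment over the words of a comparison (threshold 0.05), in Python 3.11.15 with scipy 1.17.1, and the code was tested on simulated windows. For mm10, genes and bounds came from RefSeq, with strand from the promoter table or, where absent, from GENCODE by symbol. For 14171 RefSeq genes neither gave a strand, and both ends of these were counted as starts.

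The members, the word set and the 15 gene lists were chosen with earlier results of these data known. Of the 395 list genes, 7 had no match. Named are the 15 strongest members, the 12 genes with most members (ties by summed signal) and up to 4 genes per list with the strongest members. Ccr7, Cxcr4, Il4ra and Tnfrsf13c, and the printed windows of Plcg2, Il21r and Prdm1, were chosen after their values were seen. An item that the naming rule selects is not reported here.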

Additional observations from a re-analysis of the deposited data

How the results depend on the processing

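All 3593 members were recomputed under other windows, distances, gene sets and lists. The members' share of the list, 19.1%, was 12.97% with a limit of 20 kb, 15.7% from 5 kb, 14.7% in the stronger 50% of the list, 18.3% in the mm10 optimal list with RefSeq genes and 17.8% in the conservative list. With 1 replicate's mm10 list alone it ran from 17.9% to 18.6%. The upstream share, 64.7%, was 67.8% within 20 kb, 62.0% from 5 kb and 68.4% with protein-coding genes only. The upstream share of the DNA itself also fell with distance, from 68.4% at 2 to 5 kb to 55.4% at 30 to 50 kb. It was not recomputed for these settings. The count of genes with a member as nearest start, 1845, was 850 in the stronger 50% and 4713 when any start within 50 kb counted. Members with another within 10 kb, 35.6%, were 21.4% in the stronger 50%, 27.2% within 5 kb and 49.3% within 25 kb. The NRF1 difference between sides was called in 1 of 20 words and in 0 with windows of 25 or 100 bp, within 20 kb, with protein-coding genes only, in the stronger 50% and without B box peaks, and in 1 from 5 kb. Against intergenic peaks beyond 50 kb 2 words were called, 4 with windows of 100 bp and 0 in the stronger 50%, and against intronic peaks 9 were called and 5 in the stronger 50%. The words that turned round against promoter peaks were TGGGAA with windows of 100 bp (odds ratio 1.19, adjusted exact p = 0.00111) and GGAA in the stronger 50% (odds ratio 0.807, adjusted exact p = 0.0987), and the cause was not tested. The odds ratio for recovery in both replicates, 0.693, ran from 0.686 to 0.742 with 1 replicate alone. The other 82 recomputed values of the main comparisons kept their direction and side of the threshold, or stayed near the main value. Odds ratios with a count of 0 on 1 side had no value. No paired comparison of conditions was possible because there is only 1 group. The alternative without B box peaks was chosen after seeing the data, and it leaves in any peak at a tRNA gene that lacks the exact word.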
